A study of Mus musculus with 16 samples.

Results

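HSCs that carry a low level of MAC-1 were compared between 4 weeks after transplantation (4 week MAC-1low) and steady state (SS MAC-1low), at the same sort phenotype and across all genes. The comparison holds 7 of the 16 samples of the series, 4 of 4 week MAC-1low and 3 of SS MAC-1low HSCs, chosen by their sample labels, and 13661 of the 46078 genes in the table had enough reads to be tested. All cells came from wild-type B6.SJL mice. The 4 week HSCs were taken from recipients irradiated with 900 cGy that had received 8000 LSK cells (lineage-negative, cKit+, Sca1+ marrow cells) 4 weeks earlier, and the SS HSCs from mice labelled untreated, although the protocol text of the SS samples also describes the transplantation. In each group the bone marrow was enriched for cKit, HSCs were sorted as LSK CD48- CD150+ cells without CD3e, B220, Gr, NK1.1 and Ter119, and RNA was amplified with SMART-Seq v4, which copies whole transcripts from few cells. Nothing in the labels says whether the samples of a group came from separate mice, so the p-values measure only the spread between samples, which may be technical. Ages and days of collection are not given, so the effect of transplantation cannot be told apart from that of any difference in host, handling or day. The question was how regenerating HSCs differ from resting ones when the MAC-1 gate is held fixed. SS and 4 week MAC-1- HSCs (3 samples each) served to ask whether a difference was the same in the neighbouring gate.

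HSCs sit in the bone marrow, divide rarely and give rise to all blood lineages. After transplantation into an irradiated host they home to the marrow and proliferate to refill it, and later return to rest. MAC-1 is the β2 integrin made of CD11b (*Itgam*) and CD18 (*Itgb2*), best known on neutrophils and macrophages, where it mediates adhesion and phagocytosis. Immediate-early genes such as *Fos* are transcribed within minutes of a signal without new protein synthesis, and interferon-stimulated genes follow signals from interferon receptors through STAT and IRF factors.

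Total counts ran from 16226999 to 18878201 in the SS and from 16636447 to 28017703 in the 4 week samples, with 15329 to 15940 and 15071 to 16252 genes detected. Values are given in CPM (counts scaled to a common library total) with TMM factors, in the order of the replicate numbers. The share of counts on mitochondrial genes was 8.03% ± 1.27 (SD, n = 4) in the 4 week and 5.44% ± 1.28 (SD, n = 3) in the SS samples and did not overlap (exact permutation test, two-sided, p = 0.0571, adjusted over 4 library measures 0.171, smallest p possible 0.0286). mRNA of the sorting integrin was low in both groups. *Itgam* was at 1.57, 0.895 and 0.773 CPM in the SS and 0.368, 4.36, 1.08 and 0.112 CPM in the 4 week samples, and *Itgb2* at 36.2, 1.01 and 22.9 and 13.2, 22.6, 8.74 and 3.15 CPM. The groups overlapped for both genes. The summed CPM of 14 genes that define HSCs, among them *Procr*, *Hlf*, *Mecom* and *Fgd5*, ran from 2088 to 2603 in the SS and from 2190.0 to 2853 in the 4 week samples, and all 14 were detected. The samples correlated no better within the SS group (r = 0.729 to 0.746 across genes) than between the groups (0.737 to 0.769), and within the 4 week group r was 0.788 to 0.805.

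In edgeR's quasi-likelihood test, 6 genes (0.0439% of those tested) differed between 4 week and SS MAC-1low HSCs by a log2 fold change over 1 in size at an adjusted p below 0.1, 4 of them higher (0.0293%) and 2 lower (0.0146%). *Plac8*, *Hist1h2bc*, *Spata6* and *Fos* rose, and *Ifitm1* and *Pdzk1ip1* fell. Without an adjustment, 734 genes (5.37%) were higher and 480 (3.51%) lower at p below 0.05, and in 743 (5.44%) every 4 week sample lay above every SS sample and in 681 (4.98%) below. DESeq2 on the same counts called 407 genes higher (2.89%) and 147 lower (1.04%), together 3.94% of its 14067 genes. The count of 6 went to 0 in a model of the 7 samples alone (1122 genes at an unadjusted p below 0.05), and to 0 (993 at an unadjusted p below 0.05), 1 or 3 without SS MAC-1low replicate 2, 1 or 3, and to 2 without 4 week MAC-1low replicate 1, 3 or 4.

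**Figure D1:**
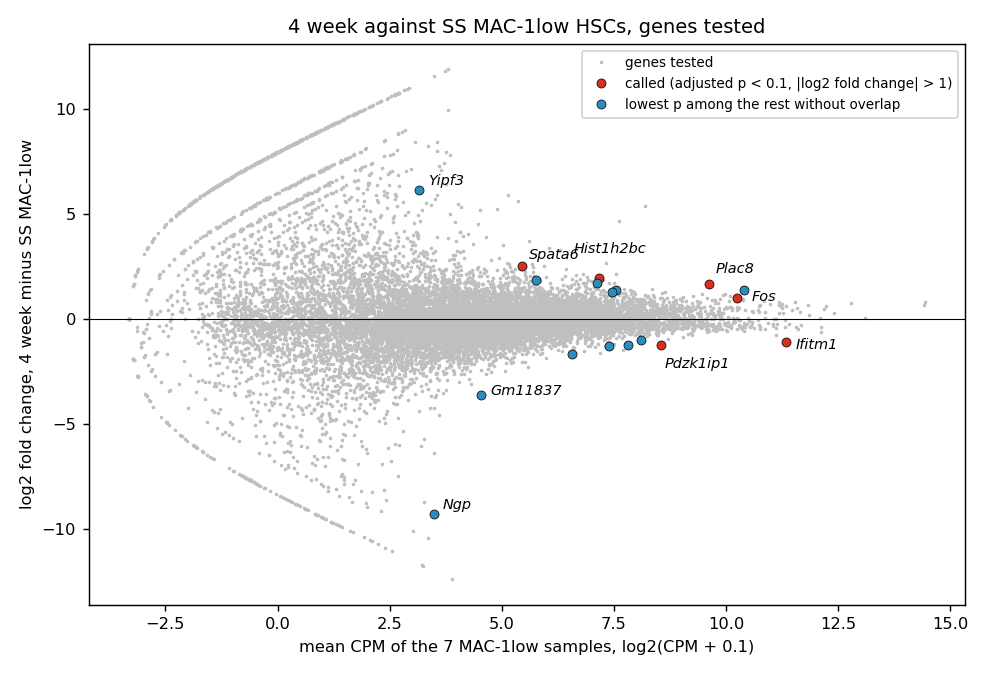
Log2 fold change of 4 week over SS MAC-1low HSCs (vertical axis) against the mean level of each of the 13661 genes tested (horizontal axis, log2 of CPM plus a constant). Red points are the 6 genes past both thresholds, all at middle to high levels, and blue points are the genes named below the thresholds, of lowest p among the rest with groups that do not overlap.

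*Plac8* encodes a small cysteine-rich protein expressed in early lymphoid and myeloid progenitors. It was at 485, 227 and 331 CPM in the SS and 1009.7, 1335, 988 and 1099 CPM in the 4 week samples. The lowest 4 week sample stood well above the highest SS sample, and *Plac8* rose 3.19-fold (log2 fold change 1.67 ± 0.23 SE, adjusted p = 0.0235). *Plac8* (ENSMUSG00000029322) lies at chr5:100553725-100572245, in coordinates of GRCm38 from a match of its identifier to GENCODE M21. *Hist1h2bc* (ENSMUSG00000018102, chr13:23684199-23692908) encodes a histone H2B of the large histone cluster. It went from 42.3, 52.2 and 67.8 CPM in the SS to 164, 260.2, 207 and 209 CPM in the 4 week samples, a 3.88-fold rise (log2 fold change 1.96 ± 0.26 SE, adjusted p = 0.0235). H2B genes are near-identical copies, so the split of reads among them is uncertain. *Spata6* (ENSMUSG00000034401, chr4:111719984-111829184), known for its part in forming the sperm neck, was low at 13.7, 9.01 and 12.5 CPM in the SS and at 98.6, 43.9, 67.5 and 57.9 CPM in the 4 week samples. Its 5.7-fold rise had the widest error of the called genes (log2 fold change 2.51 ± 0.43 SE, adjusted p = 0.0659).

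*Fos* encodes a subunit of the transcription factor AP-1 and is the classic immediate-early gene. It stood at 837, 761 and 687 CPM in the SS and at 1489, 1518, 1506 and 1650.2 CPM in the 4 week samples. Samples within each group lay close together and the groups were far apart, with a rise of 2.02-fold (log2 fold change 1.02 ± 0.15 SE, adjusted p = 0.0295). *Fos* (ENSMUSG00000021250) lies at chr12:85473890-85477273.

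*Ifitm1* encodes an interferon-induced membrane protein that restricts the entry of viruses and is strongly expressed in HSCs. It was the most abundant of the called genes, at 4051, 3122 and 3922 CPM in the SS and 1652, 2005, 1565 and 1838 CPM in the 4 week samples, and fell 2.1-fold (log2 fold change -1.07 ± 0.16 SE, adjusted p = 0.0295). *Ifitm1* (ENSMUSG00000025491, chr7:140967221-140969825) has close relatives in its cluster, so its reads may be shared in part. *Pdzk1ip1* (ENSMUSG00000028716, chr4:115088708-115093899) encodes MAP17, a small membrane protein used to mark HSCs. It was at 602, 482 and 584 CPM in the SS and 201, 319, 226 and 213 CPM in the 4 week samples and fell 2.32-fold (log2 fold change -1.21 ± 0.19 SE, adjusted p = 0.0318). Neither group overlapped the other in any of these 6 genes.

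The 6 calls rested on few samples. *Plac8* missed the threshold without SS MAC-1low replicate 2 or 3 (adjusted p = 0.108 and 0.1002), and *Hist1h2bc* without replicate 1 or 2 of that group (0.119 and 0.108). *Fos*, *Spata6*, *Ifitm1* and *Pdzk1ip1* missed a threshold without any 1 of the SS MAC-1low samples or of 4 week MAC-1low replicates 1, 3 and 4, with adjusted p up to 0.173, 0.291, 0.166 and 0.193, and *Fos* and *Spata6* also without 4 week MAC-1+ replicate 2 or 3 and *Spata6* without 4 week MAC-1- replicate 2.

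**Figure D2:**
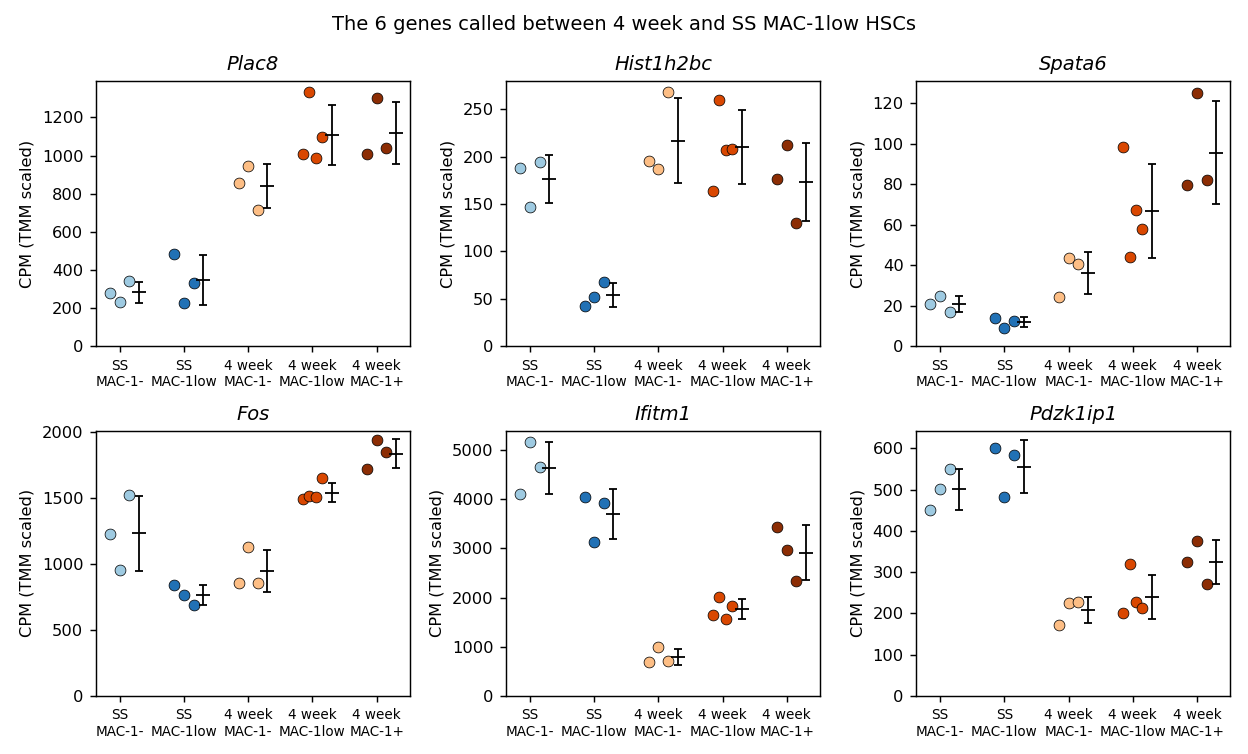
CPM (vertical axis) of the 6 called genes in the 5 sorted populations (horizontal axis). Dots are samples and bars the mean ± SD, with 3 or 4 samples each. In SS MAC-1low HSCs *Fos* lay between 687 and 837 CPM and in 4 week MAC-1low HSCs between 1489 and 1650.2 CPM.

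Below the thresholds, the genes of lowest p with groups that did not overlap and a log2 fold change above 1 were *Khdrbs1*, *Yipf3*, *Adss*, *Rgs1*, *Thoc2* and *Epsti1*. *Rgs1* encodes a regulator that shortens G-protein signals, those of chemokine receptors included. It was at 843, 579 and 681 CPM in the SS and 2109, 1689, 1700.2 and 1797 CPM in the 4 week samples (log2 fold change 1.38 ± 0.27 SE, adjusted p = 0.134). *Khdrbs1* encodes the RNA-binding protein SAM68 and was at 67.8, 50.7 and 63.8 and 282, 98.7, 206 and 205 CPM (1.7 ± 0.32, adjusted p = 0.134). Each of these genes was higher in every 4 week sample than in any SS sample, and none passed the adjustment. *Yipf3*, a Golgi membrane protein, was nearly absent in the SS MAC-1low samples, with 4, 0 and 8 reads, and had 258, 293, 361 and 349 reads at 4 weeks. It was not absent in the SS MAC-1- samples, with 12.3, 7.34 and 31.4 CPM, beside a mean of 15.2 CPM in 4 week MAC-1low HSCs. *Adss* (an enzyme of purine synthesis), *Thoc2* (mRNA export) and *Epsti1* (interferon-inducible) had log2 fold changes of 1.4 ± 0.27, 1.28 ± 0.26 and 1.85 ± 0.37, with adjusted p of 0.134, 0.143 and 0.143. Their means were 199, 188 and 58.6 CPM in SS MAC-1- HSCs, above the 96.5, 96.4 and 21.9 CPM of SS MAC-1low HSCs. For *Rgs1* these means were 1019.5 and 701 CPM, and for *Khdrbs1* 49.4 and 60.8 CPM.

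On the lower side stood *Manf*, *Gm11837*, *AI413582*, *Syngr2*, *Rabac1* and *Ngp*, among others. *Manf*, a secreted protein induced by stress of the endoplasmic reticulum, was at 386, 353 and 259.7 CPM in the SS and 96.6, 155, 179 and 136 CPM in the 4 week samples (log2 fold change -1.23 ± 0.24 SE, adjusted p = 0.134). *Syngr2*, a vesicle membrane protein of the synaptogyrin family, was at 85.1, 176 and 204 and 42.8, 71, 48.2 and 36 CPM. In each of the genes named the highest 4 week sample lay under the lowest SS sample. *AI413582*, *Syngr2* and *Rabac1* had log2 fold changes of -1.26, -1.65 and -1.01 (adjusted p 0.134, 0.188 and 0.188). *Gm11837* is annotated as antisense, and since the strand used in counting is not given in the sources used here, its reads cannot be told from those of the opposite strand. *Ngp*, a granule protein of neutrophils, had 771, 466 and 213 reads in the SS and 0, 0, 1 and 2 reads in the 4 week samples. In the SS MAC-1- samples it was at 0 CPM.

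To ask whether these differences were the same in the MAC-1- gate, the 4 week effect there (3 against 3 samples, none of them shared) was set beside that of MAC-1low HSCs and the difference of both effects was tested. In MAC-1- HSCs 25 genes rose (0.183%) and 27 fell (0.198%) past the thresholds, 0.381% together, and *Plac8*, *Ifitm1* and *Pdzk1ip1* were called in both gates. *Plac8* and *Pdzk1ip1* had log2 fold changes of 1.57 ± 0.24 and -1.26 ± 0.21 in MAC-1- HSCs, close to those in MAC-1low HSCs, and the difference was 0.11 ± 0.33 and 0.047 ± 0.28. *Hist1h2bc* and *Spata6* had 0.3 ± 0.26 and 0.8 ± 0.42 in MAC-1- HSCs, and their differences of 1.66 ± 0.36 and 1.71 ± 0.58 did not pass the test (adjusted p = 0.216 and 0.445). *Hist1h2bc* was at 188, 147 and 194 CPM in the SS and 195, 187 and 269 CPM in the 4 week MAC-1- samples, all above its SS MAC-1low samples. Over all genes tested, 55.1% had the same sign in both gates (Spearman's rho 0.081 across genes, a description).

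The difference between the gates itself passed the thresholds for 8 genes (0.0586%), of which 7 (0.0512%) had the higher effect in MAC-1low HSCs and 1 (0.00732%) the lower. *Fos* rose in MAC-1low HSCs, while in MAC-1- HSCs its log2 fold change was -0.38 ± 0.16, from 1224, 954 and 1520.2 CPM in the SS to 858, 1131 and 855 CPM in the 4 week samples. The difference was 1.4 ± 0.22 (adjusted p = 0.0583). Of the 5 sorted populations, SS MAC-1low HSCs had the lowest mean *Fos*. *Ifitm1* fell in both gates, and by more in MAC-1- HSCs (-2.55 ± 0.18), with a difference of 1.48 ± 0.24 (adjusted p = 0.0583). *Mgst1*, a membrane glutathione transferase, was at 117, 129 and 152 CPM in the SS and 145, 363, 206 and 207 CPM in the 4 week MAC-1low samples (0.8 ± 0.29, adjusted p = 0.475), but fell in MAC-1- HSCs (-2.15 ± 0.32, adjusted p = 0.00952), a difference of 2.95 ± 0.43 (adjusted p = 0.0583). *Zfp36l2*, an mRNA decay factor, was at 619.9, 530.4 and 454 and 553, 476, 513 and 580.2 CPM in the SS and 4 week MAC-1low samples and fell in MAC-1- HSCs (-1.2 ± 0.15), and the noncoding *RP23-329A21.3* had -0.42 ± 0.2 in MAC-1low and -2.3 ± 0.22 in MAC-1- HSCs. *Ska1*, a kinetochore protein, was at 15.3, 10.9 and 54.6 and 24.7, 28, 46.6 and 63.6 CPM in MAC-1low HSCs, and at 0, 0 and 0.205 and 14.8, 33.7 and 49.1 CPM in the SS and 4 week MAC-1- samples. None of the 8 had an adjusted p below 0.05 in edgeR (1192 genes had an unadjusted p below 0.05, and DESeq2 called 731), and none was called without SS MAC-1low replicate 2 or 3, 4 week MAC-1low replicate 4 or 4 week MAC-1- replicate 1 or 3.

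**Figure D3:**
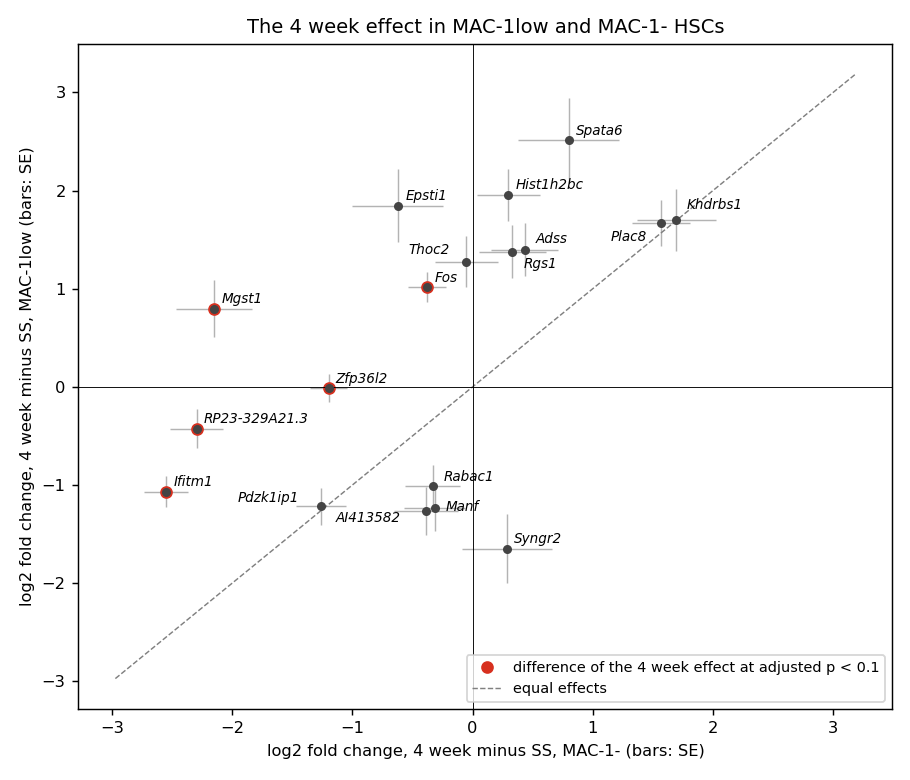
Log2 fold change of 4 week over SS in MAC-1low (vertical axis) and in MAC-1- HSCs (horizontal axis), with SE as lines, for named genes with an SE below 1 and 0.7. The dashed line marks equal change, red marks genes whose difference between the gates had an adjusted p below 0.1, and *Fos* lies to the upper left of 0 with 1.02 against -0.38.

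Of 28 immediate-early genes 27 were tested, and *Fos* alone was called. Of the 27, 12 were higher in every 4 week than in any SS sample (*Atf3*, *Dnajb1*, *Dusp1*, *Dusp5*, *Dusp6*, *Egr1*, *Fos*, *Hspa1b*, *Ier3*, *Jun*, *Klf6* and *Nr4a2*) and 2 were lower (*Dusp2* and *Ier2*), against 5.44% and 4.98% of all genes. Their median log2 fold change was 0.66, that of all genes tested -0.02. The summed level of the list ran from 2489 to 2857 CPM in the SS and from 4330 to 5313 CPM in the 4 week MAC-1low samples, with 3806 to 4482 CPM in the SS MAC-1- samples. *Klf6*, a zinc-finger factor, was at 123, 206 and 163 CPM in the SS and 463, 354, 506 and 466 CPM in the 4 week samples (log2 fold change 1.45 ± 0.32 SE, adjusted p = 0.198). *Egr1*, a transcription factor known to keep HSCs at rest and in the marrow, was at 165, 105 and 198 and 232, 266, 375 and 292 CPM (0.9 ± 0.28, adjusted p = 0.399). *Jun*, the partner of FOS in AP-1, was at 107, 99.6 and 151 and 205, 175, 182 and 189 CPM (0.65 ± 0.25, adjusted p = 0.492). These values were higher throughout but short of the test. *Nr4a2*, an orphan nuclear receptor, was at 7.88, 4.98 and 0.206 and 24.1, 25.2, 23.6 and 24.8 CPM, and *Dusp1*, a phosphatase that shuts off MAP kinases, at 581, 438 and 539.7 and 785, 715, 939 and 662 CPM. *Hspa1b*, an inducible heat-shock protein whose reads cannot be split with certainty from *Hspa1a*, was at 46.4, 39 and 30.7 and 281, 125, 399 and 198 CPM (2.7 ± 0.62, adjusted p = 0.198). Against the rest, *Ier2* was at 156, 176 and 154 and 105, 89.7, 131 and 109 CPM and *Dusp2* at 147, 93.5 and 74.7 and 47, 48.4, 27 and 56.9 CPM. At an adjusted p below 0.1 DESeq2 called 8 of the 27 higher and 2 lower, against 4.71% of all genes in either direction. Without any 1 of the 7 samples the median stayed between 0.60 and 0.85.

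The 250 bases before the *Fos* start, at chr12:85473640-85473889 on the plus strand (RefSeq, GRCm38.p6), are shown because *Fos* was the member of the list that passed the test, with the capitals marking TGACGT, the core of the cyclic AMP response element, 66 to 61 bases before the start.
Fos: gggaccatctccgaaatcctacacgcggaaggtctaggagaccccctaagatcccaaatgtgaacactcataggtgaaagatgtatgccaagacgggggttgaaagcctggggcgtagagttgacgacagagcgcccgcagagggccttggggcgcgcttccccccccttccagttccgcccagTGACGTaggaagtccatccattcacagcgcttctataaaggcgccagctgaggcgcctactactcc
TGACGT, searched on both strands, stood in 6 of the 25 immediate-early promoters found in RefSeq (24%; *Atf3*, *Btg2*, *Dusp1*, *Dusp5*, *Fos* and *Nr4a3*) and in 6.43% of all 27025 promoters.

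Of 43 interferon-stimulated genes tested, *Ifitm1* fell and none rose past the threshold. The median log2 fold change was 0.58. Every 4 week sample lay above every SS sample for 7 of the 43 (*Gbp5*, *Ifi27l2a*, *Irf7*, *Oas1a*, *Oas2*, *Oasl2* and *Rtp4*) and below for *Ifitm1*, against 5.44% and 4.98% of all genes. *Ifi27l2a*, a small interferon-induced membrane protein, was at 17, 10.6 and 9.69 CPM in the SS and 77.3, 72.3, 44.4 and 65.9 CPM in the 4 week samples (log2 fold change 2.39 ± 0.52 SE, adjusted p = 0.195). *Oas2*, which makes the messenger that activates RNase L, was at 0.783, 0.392 and 4.49 and 30.6, 47.1, 26.2 and 12.9 CPM (3.95 ± 1.33, adjusted p = 0.441), and its relative *Oasl2* at 7.04, 36 and 25.5 and 66.8, 103, 94.8 and 67 CPM (1.86 ± 0.6, adjusted p = 0.409). These genes were low at SS. *Irf7*, the factor that amplifies the interferon response, was at 5.06, 0.168 and 4.49 and 9.32, 11.3, 14 and 12.1 CPM, *Gbp5*, a GTPase of host defence, at 0.939, 0.392 and 0.0516 and 17.2, 10.01, 8.33 and 23.2 CPM, and *Rtp4* at 168, 111 and 171 and 250.3, 290.1, 324 and 203 CPM. In MAC-1- HSCs the median of the list was -0.15. The summed level of the list was 8398 to 10673 CPM in the SS and 7187 to 9234 CPM in the 4 week samples, a sum in which the abundant *Ifitm1* weighs most. DESeq2 called 7 of the 43 higher and 1 lower at an adjusted p below 0.1, against 4.71% of all genes in either direction, and without any 1 of the 7 samples the median stayed between 0.47 and 0.72.

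The 250 bases before the RefSeq starts (GRCm38.p6) of *Ifitm1*, the called gene of the list, and of *Oas1a* and *Gbp5*, shown as examples that hold the motif below, are at chr7:140967826-140968075 (plus), chr5:120907526-120907775 (minus) and chr3:142496684-142496933 (plus). RefSeq starts *Ifitm1* 855 and *Gbp5* 2956 bases downstream of the gene start in GENCODE M21, so that for both genes the window lies inside the GENCODE gene span. Capitals mark 2 copies of GAAA with 2 bases between them, the core of the interferon-stimulated response element, on either strand, and in *Oas1a* a pair of matches overlaps.
Ifitm1: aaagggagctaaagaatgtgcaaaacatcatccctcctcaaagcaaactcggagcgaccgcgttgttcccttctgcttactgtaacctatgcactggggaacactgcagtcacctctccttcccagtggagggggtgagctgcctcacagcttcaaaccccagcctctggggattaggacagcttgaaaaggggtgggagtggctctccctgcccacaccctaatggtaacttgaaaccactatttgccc
Oas1a: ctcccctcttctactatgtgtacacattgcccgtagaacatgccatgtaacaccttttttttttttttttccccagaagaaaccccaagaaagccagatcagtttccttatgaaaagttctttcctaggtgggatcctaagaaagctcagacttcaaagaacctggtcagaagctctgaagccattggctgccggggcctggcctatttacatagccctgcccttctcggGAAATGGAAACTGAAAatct
Gbp5: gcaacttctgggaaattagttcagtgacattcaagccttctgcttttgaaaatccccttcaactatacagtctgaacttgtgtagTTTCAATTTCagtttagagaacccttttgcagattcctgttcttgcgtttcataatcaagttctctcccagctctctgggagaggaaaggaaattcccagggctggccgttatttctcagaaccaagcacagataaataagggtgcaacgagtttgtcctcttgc
This repeat stood in 16 of the 32 interferon-stimulated promoters found (50%) and in 3.06% of all promoters, and it is not in this window of *Ifitm1*. Of the 7 genes higher without overlap 4 had a promoter in the table, of which *Oas1a* and *Gbp5* held it and *Irf7* and *Oasl2* did not, and of the 27 found whose groups overlapped 14 held it.

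**Figure D4:**
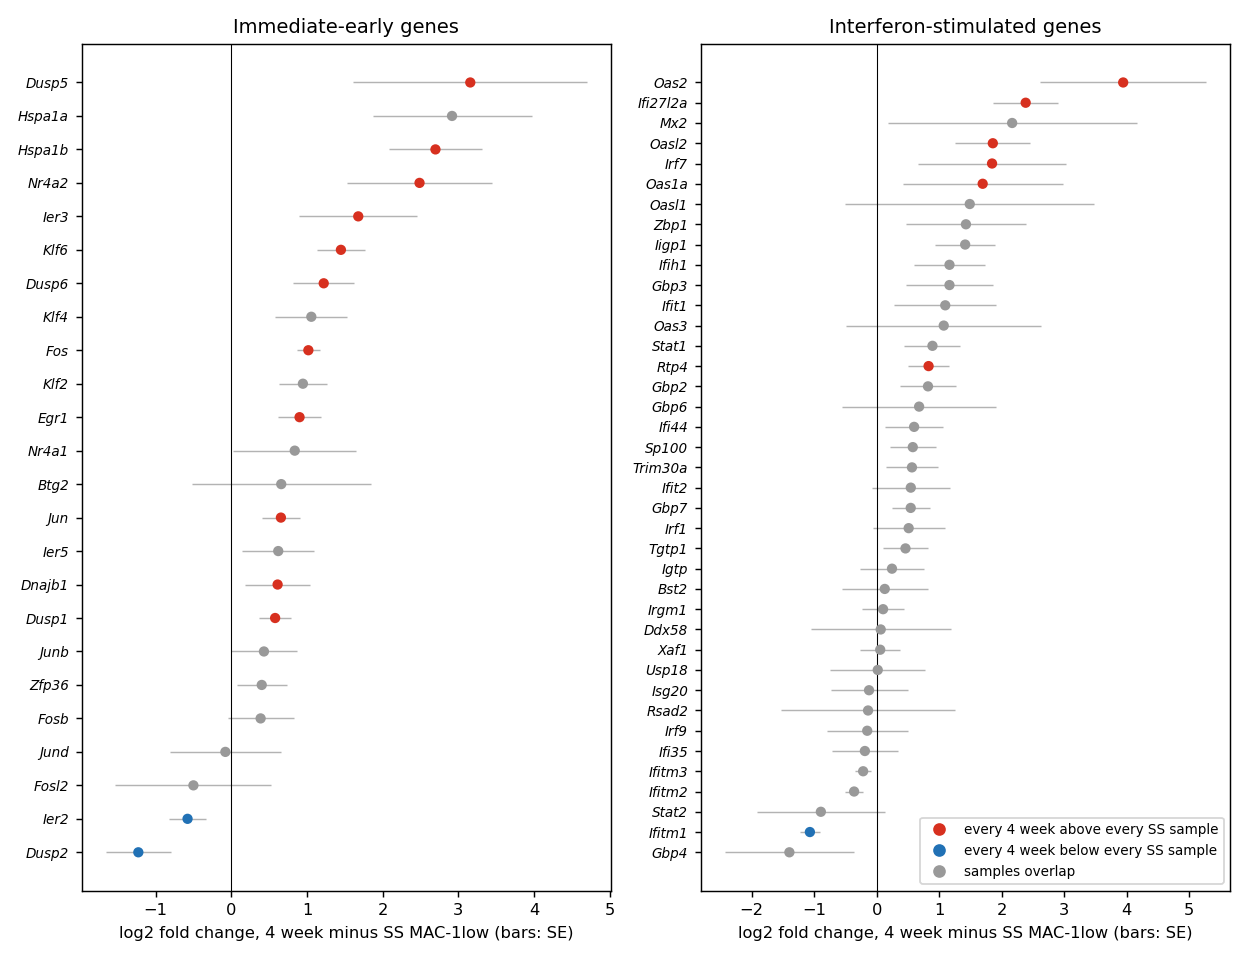
Log2 fold change of 4 week over SS MAC-1low HSCs (horizontal axis) for the members of the immediate-early and interferon-stimulated lists with an SE below 2, with bars for the SE. Most members of either list lie to the right of 0, *Fos* at 1.02 with a short bar, and *Ifitm1* to the left at -1.07.

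Of 22 antigen presentation genes none was called, with a median of 0.11. *H2-Aa*, a chain of MHC class II, was at 95.6, 52 and 111 CPM in the SS and 215, 202, 114 and 135 CPM in the 4 week samples (0.95 ± 0.39, adjusted p = 0.533), and its partner *H2-Eb1* at 8.14, 0.112 and 0.619 and 28.1, 23.5, 9.2 and 47 CPM. *Tap2*, a peptide transporter, was higher in each 4 week sample at low levels (0.887, 4.42 and 4.12 and 7.6, 5.05, 12.1 and 8.62 CPM). All 3 of these genes were higher in every 4 week sample, and *Psme1*, an activator of the proteasome, was lower in every one (log2 fold change -0.34 ± 0.15), a direction that turned with the offset for GC content and length described below (0.041). Over all genes, 5.44% were higher and 4.98% lower in this way.

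Genes of the respiratory chain encoded in the nucleus and in the mitochondria had medians of opposite sign. Of 41 nuclear genes of oxidative phosphorylation none was called, 10 were lower in every 4 week than in any SS sample and 3 were higher (4.98% and 5.44% of all genes), and the median was -0.14. *Cox8a* and *Uqcrq*, of complexes IV and III, were at 1052, 994 and 1119 and 704, 872, 728 and 715 CPM and at 594, 540.2 and 614 and 379, 501, 419 and 416 CPM in the SS and 4 week samples, with log2 fold changes of -0.48 ± 0.11 and -0.44 ± 0.14 (adjusted p = 0.213 and 0.399). *Ndufs7* of complex I was at 300.1, 379.6 and 299.7 and 179, 243, 217 and 194 CPM (-0.65 ± 0.16, adjusted p = 0.279). Of 12 genes of the mitochondrial genome none was called, 4 were higher in every 4 week sample, against 5.44% of all genes (*mt-Nd1*, *mt-Nd2*, *mt-Nd5* and *mt-Co3*), and the median was 0.55. *mt-Nd5* was at 2277, 1585 and 1907 and 3358, 2479, 2533 and 2814 CPM (0.54 ± 0.15, adjusted p = 0.336), and *mt-Nd1* at 6868, 3153 and 5120.1 and 11163, 7165, 7113 and 8429.8 CPM. *mt-Co3* was at 16.4, 7.27 and 11.8 CPM in the SS and 1938, 16.4, 23.5 and 29 CPM in the 4 week samples, so that a single sample held nearly all of its reads.

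Fold changes in MAC-1low HSCs moved with base composition. The lower the GC content of a gene's exons, the higher its 4 week level relative to SS, with medians of 0.33, 0.12, -0.089, -0.22 and -0.35 from the fifth of genes with the least to that with the most GC (Spearman's rho -0.207 across 13609 genes, a description). Among the 2926 genes above a log2 CPM of 6 rho was -0.470 in MAC-1low and -0.159 in MAC-1- HSCs. Across all genes it was -0.032 in MAC-1- HSCs. The mitochondrial list had a median GC content of 36.6%, and with an offset fitted to each sample's dependence on GC and length its median log2 fold change was 0.08, while that of the nuclear list was -0.01. The immediate-early list, with 54.4% GC, went the other way and had a median of 1.03 with the offset, and the interferon list 0.50. With the offset *Fos* rose by 1.24 on the log2 scale, and *Ifitm1* and *Pdzk1ip1* had log2 fold changes of -0.85 and -0.84, both short of the fold threshold and the latter also of the adjusted p (0.130). *Spata6* missed the adjusted p with it (0.108), so that *Plac8*, *Hist1h2bc* and *Fos* of the 6 genes were still called. Of the 77 genes with CPM values given by sample, 13 came closer to 0 by over 1.5 times with the offset and none went farther from 0 by as much. Among them *Cox8a* and *Ndufs7* had log2 fold changes of -0.0041 and -0.14 with it and *Uqcrq* -0.27. *Rgs1*, *Thoc2*, *AI413582* and *Rabac1* had 0.86, 0.80, -0.84 and -0.49 with the offset, below the log2 change of 1 by which they were named. The direction turned with the offset for *Gpx1* (0.063), *Gpx4* (0.066) and *mt-Nd2* (-0.050). How far base composition accounts for any of these values was not tested.

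**Figure D5:**
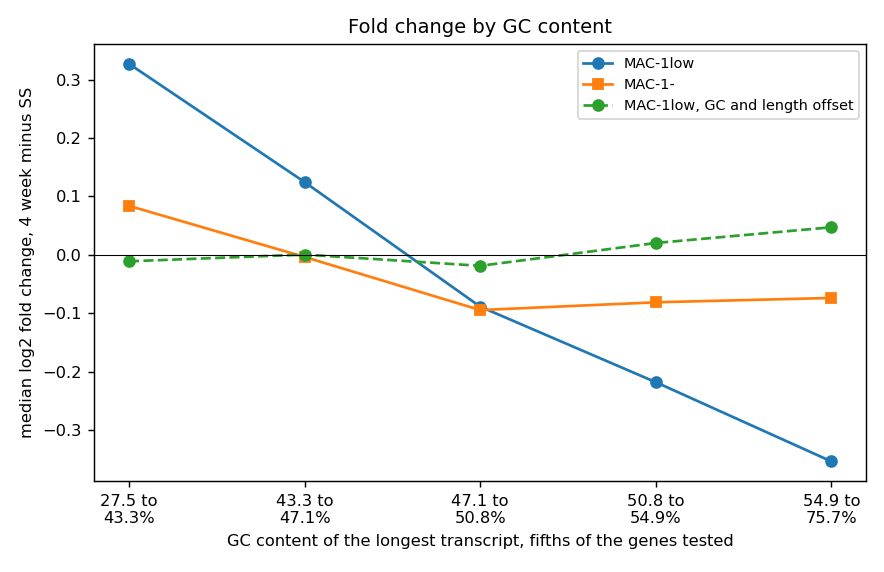
Median log2 fold change of 4 week over SS (vertical axis) in 5 equal groups of genes ordered by the GC content of their exons (horizontal axis), for MAC-1low HSCs, for MAC-1- HSCs and for MAC-1low HSCs with the offset. The MAC-1low line falls from 0.33 to -0.35, while the others stay within 0.1 of 0.

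The list of HSC genes that the study names (12 genes, chosen on these samples and so no independent evidence) had no called member and a median log2 fold change of -0.01 in MAC-1low HSCs, beside -1.14 in MAC-1- HSCs, where 4 members fell. *Hlf*, a factor of HSC self-renewal, was at 538, 237 and 291 CPM in the SS and 504, 169, 309 and 461 CPM in the 4 week MAC-1low samples, and the groups overlapped. *Procr*, the protein C receptor that marks HSCs, was at 30.4, 64.3 and 55.9 and 45.5, 46.2, 37.5 and 12.3 CPM and overlapped too. In MAC-1- HSCs their log2 fold changes were -2.3 ± 0.43 and -3.53 ± 0.66 (adjusted p = 0.0529 and 0.05), and the differences between the gates, 2.32 ± 0.57 and 3.03 ± 0.84, did not pass the test (adjusted p = 0.285 and 0.379). Within the list, *Mecom*, a factor that HSCs need, was at 102, 137 and 123 and 228, 196, 225 and 147 CPM (0.73 ± 0.28, adjusted p = 0.497), and *Socs2*, an inhibitor of cytokine signals induced by STAT5, at 29.3, 106 and 116 and 261, 168, 193 and 214 CPM (1.32 ± 0.39, adjusted p = 0.372). Both were higher in every 4 week sample, while *Kit* and *Uba7* were lower in every one. Without overlap, 2 of the 12 members were higher and 3 lower, against 5.44% and 4.98% of all genes. *Kit*, the receptor of stem cell factor, was at 295, 429.9 and 349.6 and 275, 283, 218 and 231 CPM (-0.51 ± 0.24, adjusted p = 0.565), and *Uba7*, which activates ISG15, at 211, 231 and 182 and 108, 139, 129.99 and 106 CPM (-0.79 ± 0.2, adjusted p = 0.279). *Mllt3*, *Nupr1*, *Fgd5*, *Ly6a* and *Glipr1l1* overlapped between the groups.

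Of 26 HSC transcription factors and 31 cytokine receptors and signalling genes none was called, with medians of 0.05 and 0.22. *Nfe2*, a factor of platelet formation, was at 207, 195 and 277 and 127, 190.03, 118 and 55.4 CPM (-0.88 ± 0.37, adjusted p = 0.533). *Cish*, a further STAT5 target, was at 33.8, 36.5 and 34.9 CPM in the SS and 8.34, 27.5, 1.54 and 3.07 CPM in the 4 week samples, so that *Cish* and *Socs2* lay on opposite sides. *Stat3* and *Stat5b* were higher in each 4 week sample, *Stat3* at 26.8, 23.7 and 30.9 and 37.6, 46.7, 69.2 and 46.5 CPM (0.88 ± 0.45, adjusted p = 0.582). Without overlap, 3 of the 31 cytokine receptor and signalling genes were higher and 3 lower, and 2 and 1 of the 26 transcription factors. Over all genes the shares were 5.44% and 4.98%.

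Of 31 adhesion genes none was called and the median was 0.18. *Selp* (P-selectin, which lets leukocytes roll on vessel walls) was at 3.03, 0 and 0.98 CPM in the SS and 49.1, 39.95, 55.9 and 58.3 CPM in the 4 week samples (5.24 ± 1.54, adjusted p = 0.372). *Itgal*, the partner of CD18 in the integrin LFA-1, had 2, 0 and 0 reads in the SS and 110, 223, 41 and 155 reads in the 4 week samples. *Pecam1* was at 3.81, 1.34 and 0.206 and 12.9, 15.3, 6.63 and 11.4 CPM. All 3 were higher in each 4 week sample, against 5.44% of all genes, and the SE of the log2 fold change was over 1 for each of them. *Ncam1* had 1, 350 and 171 reads at SS and 0 in every 4 week sample, a level at least 64.5-fold lower when 0 is set to 3 counts per library, and at least 30.1-fold lower without SS replicate 2. *Ptprc*, which encodes CD45, was at 392, 303 and 280.3 and 781, 529.95, 558 and 659 CPM (0.96 ± 0.27, adjusted p = 0.336), without overlap.

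No lineage list had a called member. The 8 megakaryocytic and erythroid genes that the study names had a median of -0.08, beside 2.07 in MAC-1- HSCs, and its 8 genes of lymphoid and myeloid priming a median of 0.42, beside -0.89. *Itga2b*, the platelet integrin CD41, was at 20.3, 25.9 and 21.9 and 12, 5.28, 9.15 and 8.24 CPM in the SS and 4 week samples (-1.39 ± 0.59, adjusted p = 0.542). *Pf4*, a platelet chemokine, was at 544, 251 and 339.9 and 406, 679, 306 and 788 CPM and overlapped, whereas it rose in MAC-1- HSCs (2.71 ± 0.38, adjusted p = 0.00678), with a difference between the gates that missed the test (adjusted p = 0.228). *Klf1*, the erythroid master factor, had no read in the SS and 0, 97, 165 and 0 reads in the 4 week samples, at least 20.3-fold more on average with 0 set to 3 counts per library, and at least 9.3-fold more without 4 week replicate 3. The wider programs of 26 megakaryocyte, 19 erythroid, 20 lymphoid and 17 myeloid genes had medians of 0.16, -0.35, 0.16 and -0.31. With the GC and length offset these medians were 0.14, 0.03, 0.23 and 0.04, so that the erythroid and myeloid ones changed sign. For the 8 megakaryocytic and erythroid genes of the study the median with the offset was 0.14, and for its 8 priming genes 0.29. In the erythroid program *Car2* was at 2239.5, 1888 and 2532 and 1493, 1843, 1843 and 1209.7 CPM (-0.48 ± 0.15, adjusted p = 0.419), and *Tmem14c*, of heme synthesis, at 111, 196 and 126 and 65.4, 71.7, 88.1 and 92.6 CPM (-0.86 ± 0.33, adjusted p = 0.496). In the myeloid program *Fcer1g*, a signalling chain of Fc receptors, was at 199, 173 and 80.4 and 76.9, 57.7, 33.6 and 65.7 CPM (-1.37 ± 0.42, adjusted p = 0.399). *Car2*, *Tmem14c* and *Fcer1g* were lower in every 4 week sample than in any SS sample, while *Gimap6*, a lymphoid GTPase, was higher at 339, 269 and 319 and 415, 376, 468 and 482 CPM. Without overlap, 3 of the 26 megakaryocyte genes were higher and 5 lower, and 0 and 2 of the 19 erythroid genes. For the 20 lymphoid genes these counts were 2 and 0, and for the 17 myeloid genes 1 and 3. Over all genes the shares were 5.44% and 4.98%.

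Cell cycle genes showed no call in MAC-1low HSCs. The median was -0.17 for 32 genes of DNA replication, of which *Hells* lay higher and *Tyms* and *Mcm2* lower in every 4 week sample, and -0.05 for 35 genes of G2 and mitosis, of which 5 lay lower, against 4.98% of all genes (*Cdc20*, *Cdca8*, *Kif23*, *Tacc3* and *Tpx2*). In MAC-1- HSCs the medians were 0.79 and 1.10. *Tyms*, which makes thymidylate, was at 269, 357 and 281 CPM in the SS and 138, 185, 228 and 179.8 CPM in the 4 week MAC-1low samples (-0.73 ± 0.35, adjusted p = 0.565). *Cdc20*, an activator of the anaphase-promoting complex, was at 33, 34.1 and 76.3 and 16.2, 24.1, 9.0 and 6.41 CPM (-1.78 ± 0.75, adjusted p = 0.537), and *Tpx2*, a spindle factor, at 67.8, 87.6 and 112 and 16.2, 56.1, 32.7 and 45.3 CPM (-1.24 ± 0.6, adjusted p = 0.565). The summed level of the G2 and mitosis list was 2671 to 4363 CPM in the SS and 2944 to 3744 CPM in the 4 week samples, hence within the SS range, and above the 1557 to 2135 CPM of SS MAC-1- samples. Among 24 genes that control G1 (median -0.14), *Ccnd2*, a D-type cyclin, was at 433, 515 and 400.01 and 319, 319, 350.4 and 314 CPM (-0.46 ± 0.18, adjusted p = 0.51), *Cdkn2d*, an inhibitor of CDK4 and CDK6, at 113, 83 and 122 and 29.5, 52.1, 38.2 and 43.7 CPM (-1.37 ± 0.36, adjusted p = 0.308), and *Cdkn1b*, which encodes p27, at 1.15, 5.82 and 2.94 and 10.2, 6.61, 39.95 and 10.7 CPM (2.35 ± 0.88, adjusted p = 0.492). Of 24 quiescence regulators (median 0.29), *Cdkn1b*, *Egr1*, *Nr4a2* and *Tsc1* were higher in every 4 week sample and none was lower. Over all genes the shares were 5.44% and 4.98%. *Tsc1*, a brake on mTOR, was at 6.63, 13.4 and 9.54 and 14.2, 23.3, 37.1 and 48.2 CPM (1.64 ± 0.74, adjusted p = 0.553).

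Stress and maintenance genes held no call either. Of 29 stress and antioxidant genes (median -0.04), *Xbp1*, *Hsp90b1*, *Gpx1* and *Gpx4* were lower in every 4 week sample and none was higher, against 4.98% and 5.44% of all genes. *Xbp1*, a factor of the unfolded protein response, was at 78.1, 139 and 142 and 45.5, 52.1, 34.4 and 42.6 CPM (-1.45 ± 0.37, adjusted p = 0.279), and *Hsp90b1*, a chaperone of the endoplasmic reticulum, at 247, 366 and 268 and 175, 141, 216 and 192 CPM (-0.7 ± 0.26, adjusted p = 0.492). With *Manf* above, 3 genes of the endoplasmic reticulum lay lower, a grouping made after their values were seen. Of 26 genes of ribosome biogenesis (median -0.16), 2 were higher and 2 lower without overlap, against 5.44% and 4.98% of all genes. *Npm1*, an abundant nucleolar protein and one of the higher, was at 2554, 1712 and 2027 and 4420.3, 2687, 3339 and 4108 CPM (0.79 ± 0.25, adjusted p = 0.399). The medians were 0.26 for 24 targets of p53, 0.12 for 26 genes of HSC ageing, 0.15 for 27 genes of chromatin and DNA methylation, -0.27 for 27 genes of glycolysis and hypoxia, -0.19 for 4 genes of the fetal HSC program and -1.04 for 12 imprinted growth genes, of which *Meg3* had its highest 4 week value below its lowest SS value (2.3, 6.32 and 10.003 and 0.429, 0, 0.0514 and 0.0375 CPM). *Chd1*, a chromatin remodeller, was higher in every 4 week sample (6.73, 52.9 and 12 and 87.6, 69.9, 93.7 and 60.7 CPM). *Smarca4*, which encodes the remodeller BRG1 and is of the same list, was lower in every one (35.5, 32.2 and 25.9 and 6.93, 18.6, 23.7 and 12.9 CPM). Without overlap, 1 of the 27 chromatin genes was higher and 1 lower, and 0 and 2 of the 12 imprinted genes. Over all genes the shares were 5.44% and 4.98%.

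Markers of other cells were detected at levels that differed widely between lists. The highest single markers were *Lyz2* of the monocyte and macrophage list, with a mean of 626 CPM over the 7 samples, and *Nkg7* of the NK cell list with 249.6 CPM, beside 561 CPM for *Ly6a*, the highest of the genes that define HSCs. *Ccr2* and *Fcgr1* of the former list and *Ncr1*, *Klrd1* and *Gzmb* of the NK cell list were at 0 in all 7 samples. Of the 14 monocyte and macrophage markers 4 had enough reads to be tested, and of the 9 NK cell markers 2. The summed CPM of 12 neutrophil markers were 131 to 168 in the SS and 31.5 to 156 in the 4 week samples, with *Ngp* described above and *Lcn2* at 0 throughout. Those of 11 T cell markers did not overlap, with 44.0 to 71.3 and 19.2 to 41.5, nearly all of it from *Lat* (49.7, 44 and 71.1 and 26.3, 19.8, 40.6 and 19.2 CPM), while *Cd3g*, *Cd8a*, *Cd2* and *Trbc1* were at 0. Those of 8 mast cell and basophil markers did not overlap either, with 0.052 to 19.7 and 26.1 to 120.2, from *Cpa3* (0.0522, 18.9 and 19.6 and 86.9, 34.2, 26.1 and 120.2 CPM), while *Mcpt8*, *Prss34*, *Fcer1a* and *Cma1* were at 0. The sums for monocytes and macrophages (635 to 753 and 523 to 715), NK cells (216 to 242 and 164 to 373), B cells (7.27 to 187 and 32.5 to 63.3), erythroblasts (26.8 to 49.0 and 34.8 to 61.6), megakaryocytes and platelets (42.1 to 97.3 and 44.5 to 79.9), dendritic cells (27.9 to 49.7 and 29.3 to 83.7) and endothelial or stromal cells (22.2 to 69.7 and 49.8 to 119) overlapped. In sorted bulk samples fewer cells of a type and less RNA per cell cannot be told apart. The part of other cells in the results above was not tested.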

How the data were processed

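The authors aligned reads with STAR within an nf-core pipeline and deposited raw whole-number counts per gene. Which program counted, on which strand, and with which genome build and annotation is not given in the sources used here. Because SMART-Seq v4 adds no molecular identifiers, a fold at low levels also holds amplification noise. GENCODE M21 held 98.2% of the 46078 identifiers, and 0 columns of samples were left unused. Here counts were tested in R 4.3.3 with edgeR 4.0.16 (TMM, default filter on low counts, robust quasi-likelihood test, Benjamini-Hochberg adjustment over all 13661 genes) in 1 model of all 16 samples with a mean per population, and also with DESeq2 1.42.0 and limma 3.58.1. The tests were first checked on simulated counts. SE are those of the edgeR contrast. A gene was called in counts of genes at an adjusted p below 0.1 and an absolute log2 value above 1, and as a list member at the adjusted p alone. Zeros were set to 3 counts per library for lower bounds, which cover counting error only.

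Named were the called genes, genes of lowest p without overlap between groups (mean of at least 50 normalized counts, log2 change over 1) up to 10 per direction, up to 4 members of lowest p of each of 28 lists, all members of the lists of sort markers and of the study, and up to 5 genes per direction of the test between gates. Further list members were named because their groups did not overlap, after their values were seen. The comparison, the members and the lists were chosen with earlier results of these data known. A few genes that these rules name are not reported here. Promoters were read from RefSeq. Plots were drawn with matplotlib 3.10.9.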

Additional observations from a re-analysis of the deposited data

Results flagged for a closer look

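The 4 week effect differed between MAC-1low and MAC-1- HSCs, by the test of the difference itself in edgeR, for 8 genes. The difference of the log2 fold changes (MAC-1low minus MAC-1-) was 1.4 for *Fos*, 1.48 for *Ifitm1*, 2.95 for *Mgst1*, 1.87 for *RP23-329A21.3*, 1.19 for *Zfp36l2* and -8.09 for *Ska1*, whose SS MAC-1- samples were at or near 0, so that this size depends on the prior count. It was 2.58 for *Ccl4*, a chemokine that fell in MAC-1- HSCs (log2 fold change -3.07) and had -0.49 in MAC-1low HSCs, and 1.94 for *Cdk17*, a kinase with 0.93 in MAC-1low and -1.01 in MAC-1- HSCs. The last pair lay just inside the threshold, each with an adjusted p of 0.0984.

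Among the 4 week MAC-1low samples, a value stood apart from the other 3 by Dixon's ratio, the gap divided by the range, for 6 of the 77 genes with CPM values given by sample: *mt-Co3* (0.993, replicate 1 high), *Epsti1* (0.929, replicate 2 high), *Meg3* (0.88, replicate 1 high), *Cdkn1b* (0.877, replicate 3 high), *Ccnd2* (0.861, replicate 3 high) and *Cox8a* (0.855, replicate 2 high). The critical value for 4 samples is 0.829, and chance alone passes it in about 1 of 20 groups.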

How the results depend on the processing

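The count of 6 genes in MAC-1low HSCs was 5 at an adjusted p below 0.05, 6 with DESeq2's size factors or with thinned counts, 8 with a covariate for how many genes each sample detected, and 4 with a stricter filter or with the GC and length offset, which was added after seeing the data and under which 3 of the 6 genes were among the 4. It was 554 with DESeq2, 17 with limma-voom, 40 without a filter and 0 with only the groups compared, with 6, 5, 5 and 0 of the 6 genes shared. Without 1 sample each it ran from 0 to 9. The count of 52 in MAC-1- HSCs was 17 at an adjusted p below 0.05, 968 with DESeq2, 80 with limma-voom, 24 with the covariate and 6 with only the groups compared, and ran from 17 (leaving out 4 week MAC-1- replicate 1 or 2) to 48, with 30, 23, 32 and 34 when SS MAC-1- replicate 2, 4 week MAC-1- replicate 3, 4 week MAC-1+ replicate 3 or 4 week MAC-1low replicate 4 was left out. The count of 8 for the difference between the gates was 0 at an adjusted p below 0.05, 731 with DESeq2, 15 with limma-voom, 31 without a filter and 4 with the covariate. It ran from 0 to 17, with 17 and 13 when SS MAC-1- replicate 1 or 2 was dropped, 13 and 4 for 4 week MAC-1+ replicate 1 or 3, 1, 5 and 0 for 4 week MAC-1low replicate 1, 3 or 4, 0, 5 and 1 for 4 week MAC-1- replicate 1, 2 or 3 (the 1 gene was not among the 8), and 0 for SS MAC-1low replicate 2 or 3. The cause was not tested.

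With the replicate number as a block (replicate block) the counts were 0 in MAC-1low HSCs, 22 in MAC-1- HSCs and 0 for the difference, with 911, 1211 and 935 genes at an unadjusted p below 0.05. Samples with the same replicate number did not deviate together (r of -0.005 to 0.040 across genes). The running numbers in the column names match 4 week MAC-1low to MAC-1- samples otherwise than the replicate numbers do in part. A pairing by those running numbers was not tested, so shared mice or sorts cannot be told from these values.

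Among genes with CPM values given by sample, the sign turned for *Hlf*, *Zfp36l2*, *Itgb2* and *Itgam*. *Hlf* was at -0.010 with a stricter filter, -0.14 with the replicate block and -0.18 with the GC and length offset, and from -0.22 to 0.44 without 1 sample each. *Zfp36l2* was at 0.025 with limma-voom, 0.00061 without a filter, 0.0037 with only the groups compared and 0.27 with the offset, and from -0.14 to 0.096 without 1 sample each. *Itgb2* was at 0.18 with the replicate block, and *Itgam* at -0.57 with limma-voom, at -0.35 with the replicate block and from -1.07 to 0.84 without 1 sample each. The remaining ones kept their sign under every alternative tried. Of the 107 list members whose groups did not overlap, 7 turned, with the offset alone, from main values between -0.50 and 0.42: *Cox6a1* (0.33), *Gpx1* (0.063), *Gpx4* (0.066), *Prtn3* (0.069), *Psme1* (0.041), *Rgs18* (-0.31) and *mt-Nd2* (-0.050). The difference in detected genes was 386 over filtered genes, and from -211 to 182 without 1 sample each. The median over all genes tested moved by over 0.1 in log2 only with limma-voom (from -0.02 to 0.09). Many genes of low count had no reads in a whole sample, and at this depth and number of samples a fold change with an SE over 1 sets only a wide range.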
